A study of Homo sapiens with 24 samples.

Results

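Reelin and the genes that receive its signal form a set of 4 among the 61551 genes counted: RELN (reelin), the receptor genes VLDLR and LRP8 (also called ApoER2), and the adaptor gene DAB1. The rows were taken from the count table by gene symbol. RELN itself was chosen by its measured values, as the gene with the largest increase in HAR123-KO neuroectoderm among those with a mean of at least 1 CPM (normalised counts, defined below) and one changed in all 3 edited genotypes, so its differences from hHAR123 and HAR123-KO in neuroectoderm, and between the stages, are given as descriptions with no test. The other 3 genes were taken for their known place in the pathway. All 4 genes passed the filter on low counts in every comparison.

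RNA was sequenced from H9 hESCs, an established line of human embryonic stem cells, of 4 genotypes at 2 stages, with 3 libraries each and 24 in all. HAR123 is a human accelerated region, a stretch of DNA conserved in mammals that changed quickly on the human lineage, and lies within the SMG6 gene. hHAR123 cells carry the human sequence, HAR123-KO cells lack it, and in cHAR123 and mHAR123 cells the chimpanzee or the mouse sequence takes its place. The comparisons ask what loss or replacement of HAR123 does to transcript levels in hESCs (day 0) and in neuroectoderm, made from them by 5 days of culture with Noggin, a BMP inhibitor, and SB431542, an inhibitor of the activin and nodal receptors. The study used 2 clones of each genotype, but the clone behind each library is not given, so p-values measure the spread between these libraries only.

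Reelin is a large secreted glycoprotein of the extracellular matrix. It binds the receptors VLDLR and ApoER2 on migrating neurons, Src-family kinases then phosphorylate DAB1 bound to the receptor tails, and phosphorylated DAB1 passes the signal to the cytoskeleton and to adhesion molecules before it is degraded. In the developing cortex the best-known source is the Cajal-Retzius cell of the marginal zone, and loss of reelin, of both receptors or of DAB1 disturbs the layering of cortical neurons.

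Library totals ranged from 23334732 to 35198684 counts in hESCs and from 21022748 to 25978892 in neuroectoderm, and replicates of every group differed by more than sampling noise. The labelled stages were checked by markers: all 6 neuroectoderm markers rose and all 6 pluripotency markers fell between hHAR123 hESCs and neuroectoderm. HAR123 is not a gene, so exon counts do not show the deletion itself. The base means that the study lists for the chimpanzee and mouse replacements in neuroectoderm match the columns that carry the opposite label. Values here follow the column labels, and cHAR123 and mHAR123 neuroectoderm would trade places if those labels are crossed. Changes between the stages given for these genotypes would then set cHAR123 hESCs against mHAR123 neuroectoderm, and the reverse. In these bulk libraries, more transcript per cell and more cells of a type that makes it cannot be told apart.

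On GRCh38, with exons as the count table lists them, RELN (ENSG00000189056) occupies chromosome 7 from 103471381 to 103989658 on the minus strand. VLDLR (ENSG00000147852) lies on chromosome 9 from 2621182 to 2660056 on the plus strand. Both other genes lie on the minus strand of chromosome 1, LRP8 (ENSG00000157193) from 53242364 to 53328469 and DAB1 (ENSG00000173406) from 56994778 to 58546734. Counts were summed over all exons of a gene, so no single exon or isoform is resolved.

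The 250 bases before the start of RELN are printed because RELN is the member whose level differed most between groups. They span chr7:103989659-103989908 of GRCh38.p14, are written 5′ to 3′ on the minus strand, and are credited to RefSeq. Capitals mark the matches, on either strand, of GGGCGG (the core of a GC box, which SP factors bind) and of CACGTG (an E-box), with overlapping matches counted separately.

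RELN: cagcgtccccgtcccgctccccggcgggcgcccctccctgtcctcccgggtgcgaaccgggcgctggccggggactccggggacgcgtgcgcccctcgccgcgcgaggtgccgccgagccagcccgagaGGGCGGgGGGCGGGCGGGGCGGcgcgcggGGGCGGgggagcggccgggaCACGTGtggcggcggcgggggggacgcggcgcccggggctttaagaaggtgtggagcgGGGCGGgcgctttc

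G and C make up 83.2% of these bases, against a median of 58% over 35116 promoter windows of the same length. The window holds 43 CpG dinucleotides, more than 98.98% of those windows, whose median is 11. It has 6 matches of GGGCGG, which 42.64% of windows hold at least once, and 1 match of CACGTG, which 6.34% hold. TATAAA, the core of a TATA box, has no match here and is found in 10.72% of windows. The window listed for VLDLR (chr9:2621537-2621786) holds 41 CpG dinucleotides with 2 GGGCGG matches, and that for LRP8 (chr1:53328071-53328320) holds 31 with 3. Both lie inside the gene spans given above, not before them. DAB1 has several listed windows, with 12 to 41 CpG dinucleotides.

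RELN was close to the limit of detection in hESCs, where the genotypes did not differ detectably, and far apart between genotypes in neuroectoderm. The raw counts in hESCs were 23, 40 and 24 in the 3 hHAR123 libraries, 19, 22 and 31 in HAR123-KO, 34, 22 and 27 in cHAR123 and 25, 21 and 29 in mHAR123. As CPM (counts scaled to a common library total after adjustment by TMM factors), all 12 hESC libraries lay between 0.750 and 1.35 CPM, and every genotype overlapped every other. Against hHAR123 the log2 fold change was -0.072 (95% interval -0.62 to 0.47) in HAR123-KO, 0.15 (-0.39 to 0.68) in cHAR123 and -0.14 (-0.67 to 0.40) in mHAR123. The adjusted p values (edgeR's quasi-likelihood F test, Benjamini-Hochberg over all genes tested) were 0.903, 0.730 and 0.751. With at most 40 counts per library, smaller differences than these intervals allow were not detectable at this depth.

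In neuroectoderm the same gene spread over a wide range. The hHAR123 libraries held 68, 60 and 46 RELN counts, or 2.86, 2.24 and 1.78 CPM. The HAR123-KO libraries held 4479, 4791 and 4902 counts, or 180, 184 and 186 CPM. The cHAR123 libraries stood between them at 372, 353 and 341 counts (13.8, 13.7 and 14.0 CPM), close to the mHAR123 libraries at 324, 303 and 313 counts (11.8, 11.9 and 12.8 CPM). No library of one genotype reached the range of another, and the order from lowest to highest was hHAR123, mHAR123, cHAR123 and HAR123-KO.

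**Figure D1:**
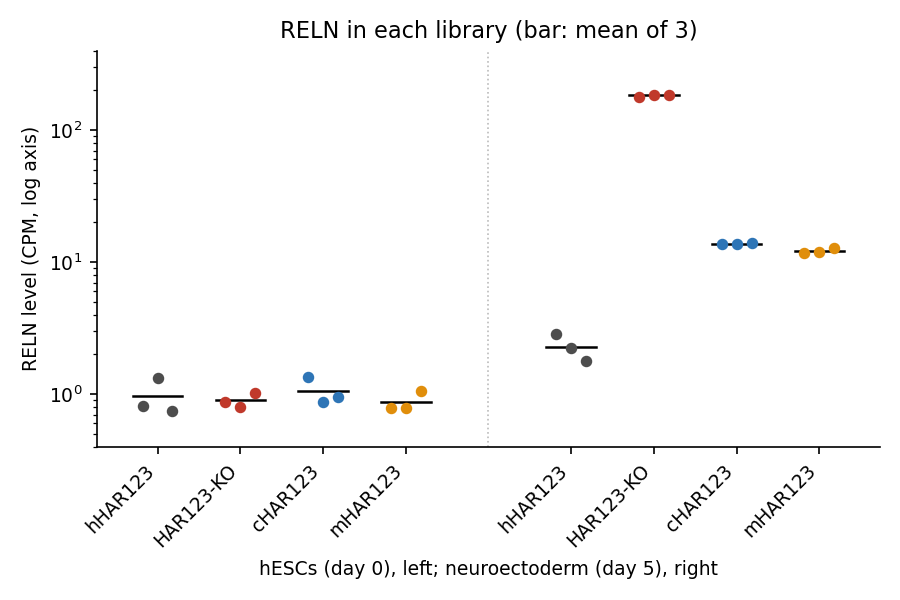
RELN level in CPM (log axis) in each of the 24 libraries, by genotype, with hESCs on the left and neuroectoderm on the right; points are libraries and bars are means of 3. All 12 hESC libraries lie at or below 1.35 CPM, while the HAR123-KO neuroectoderm libraries lie between 180 and 186 CPM and the cHAR123 and mHAR123 ones between 11.8 and 14.0.

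As a description of the values that chose the gene, RELN in neuroectoderm was 80.5-fold higher in HAR123-KO than in hHAR123, a log2 fold change of 6.33 (SE 0.068). It was 5.97-fold higher in cHAR123 (log2 2.58, SE 0.12) and 5.20-fold higher in mHAR123 (log2 2.38, SE 0.12). At an adjusted p under 0.01 and a change of over 1 on the log2 scale, called below, 9.45% of all genes tested were called in HAR123-KO, 0.978% in cHAR123 and 1.03% in mHAR123. Against HAR123-KO, the level was 13.3-fold lower in cHAR123 and 15.2-fold lower in mHAR123. The replacements themselves, whose difference the choice of the gene did not use, lay 0.20 apart on the log2 scale, lower in mHAR123 (log2 fold change -0.20, 95% interval -0.35 to -0.051). This difference did not pass (edgeR adjusted p = 0.0972), while 4.20% of all genes tested passed an adjusted p of 0.01 at any size in that comparison.

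RELN was also higher after differentiation of unedited cells, by far less. In hHAR123 neuroectoderm its level was 2.38-fold that in hESCs (log2 1.25, SE 0.23), with no overlap between the stages. The ratio was 13.2-fold in cHAR123 and 14.0-fold in mHAR123 (log2 3.72 and 3.80, SE 0.13 and 0.14), and 204-fold in HAR123-KO (log2 7.67, SE 0.070), and all 4 values are given without a test because the neuroectoderm levels helped choose the gene. The effect of genotype on RELN was greater in neuroectoderm than in hESCs by 6.40 (SE 0.31) on the log2 scale in HAR123-KO, by 2.44 (SE 0.29) in cHAR123 and by 2.54 (SE 0.30) in mHAR123.

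The receptor gene VLDLR, which encodes the very low density lipoprotein receptor, was the member that differed most between genotypes before differentiation. In hHAR123 hESCs its level was 64.0, 59.7 and 62.3 CPM. All 9 edited libraries were higher, at 90.2, 88.9 and 88.5 CPM in HAR123-KO, 86.5, 82.8 and 79.9 in cHAR123 and 92.1, 90.4 and 92.3 in mHAR123. VLDLR was 1.45-fold higher than in hHAR123 in HAR123-KO (log2 0.54, SE 0.036, edgeR adjusted p = 1.42e-15), 1.35-fold in cHAR123 (log2 0.43, SE 0.040, adjusted p = 6.45e-11) and 1.48-fold in mHAR123 (log2 0.57, SE 0.036, adjusted p = 2.02e-17). None of these changes reached 1 on the log2 scale. At any size, 12.4% of all genes tested passed an adjusted p of 0.01 in HAR123-KO hESCs, 16.3% in cHAR123 and 19.2% in mHAR123. The 3 comparisons share the hHAR123 libraries and are not independent of one another. Between the edited genotypes in hESCs the differences were at most 0.14 on the log2 scale, with adjusted p of 0.0702 for cHAR123 against HAR123-KO, 0.558 for mHAR123 against HAR123-KO and 0.0581 for mHAR123 against cHAR123 (0.00752 without the first cHAR123 library).

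In neuroectoderm the VLDLR levels of the genotypes were nearer to each other. They were 42.3, 42.5 and 45.9 CPM in hHAR123, 50.2, 50.2 and 52.7 in HAR123-KO, 41.4, 42.7 and 42.7 in cHAR123 and 46.9, 49.2 and 46.9 in mHAR123. The HAR123-KO libraries stood above all others, and those of cHAR123 overlapped those of hHAR123. HAR123-KO was 1.17-fold above hHAR123 (log2 0.23, SE 0.047), a description only because this contrast chose RELN. Against hHAR123, the differences of -0.065 in cHAR123 (95% interval -0.16 to 0.031) and 0.0998 in mHAR123 (0.00059 to 0.20) did not pass (edgeR adjusted p = 0.397 and 0.145), where 9.89% and 14.0% of all genes tested passed at any size. VLDLR was lower in cHAR123 than in HAR123-KO (log2 -0.27, SE 0.042, adjusted p = 1.35e-07), a comparison in which 39.0% of all genes passed at any size. The differences of mHAR123 from HAR123-KO (log2 -0.11, SE 0.044, adjusted p = 0.0408) and from cHAR123 (log2 0.16, SE 0.044, adjusted p = 0.0145) did not pass.

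VLDLR fell during differentiation in every genotype. The log2 fold change from hESCs to neuroectoderm was -0.50 (SE 0.046) in hHAR123, -0.79 (SE 0.038) in HAR123-KO, -0.95 (SE 0.041) in cHAR123 and -0.93 (SE 0.040) in mHAR123, with adjusted p values of 9.17e-13, 1.15e-27, 4.29e-24 and 1.13e-29. Between the stages 80.1%, 79.2%, 78.9% and 78.6% of all genes tested passed at any size, so a change of this kind was the common case. The fall was greater than in hHAR123, by a log2 difference of -0.31 (SE 0.059, edgeR adjusted p = 1.41e-05) in HAR123-KO, -0.49 (SE 0.062, adjusted p = 9.13e-08) in cHAR123 and -0.45 (SE 0.059, adjusted p = 1.13e-07) in mHAR123. In these tests of the stage difference, 32.5%, 8.71% and 12.8% of all genes tested passed at any size. The test for HAR123-KO reuses the neuroectoderm contrast given above as a description only.

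VLDLR-AS1, a transcript of the opposite strand that shares 260 of the 16507 exon bases of VLDLR, moved the same way in hESCs. It held between 72 and 297 counts per library, against at least 1007 for VLDLR. In hESCs it was higher than in hHAR123 by 0.40 (SE 0.11) on the log2 scale in HAR123-KO, 0.59 (SE 0.11) in cHAR123 and 0.76 (SE 0.10) in mHAR123, with edgeR adjusted p of 0.00645, 4.41e-05 and 1.04e-07. Whether the counting used strand is not given in the sources used here, so reads of the shared bases cannot be assigned to one of the pair.

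LRP8, which encodes the second reelin receptor ApoER2, showed its main change between the stages. In hESCs its level was 171, 168 and 172 CPM in hHAR123, 178, 187 and 183 in HAR123-KO, 183, 185 and 188 in cHAR123 and 189, 188 and 182 in mHAR123. In neuroectoderm it was 34.7, 37.8 and 35.0 CPM in hHAR123, 43.7, 41.7 and 41.0 in HAR123-KO, 41.2, 35.9 and 40.3 in cHAR123 and 40.1, 36.7 and 38.7 in mHAR123. The stages were far apart in every genotype and the genotypes were close to each other within a stage.

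LRP8 fell 4.71-fold in hHAR123 (log2 -2.24, SE 0.041), 4.28-fold in HAR123-KO (log2 -2.10, SE 0.036), 4.67-fold in cHAR123 (log2 -2.22, SE 0.039) and 4.78-fold in mHAR123 (log2 -2.26, SE 0.039). All 4 changes were called, with an edgeR adjusted p of at most 1.08e-35, in comparisons that called 45.9%, 41.1%, 42.7% and 41.9% of all genes. The size of this fall did not differ detectably from that in hHAR123. The stage difference of the effect was 0.11 (95% interval 0.0048 to 0.22, adjusted p = 0.0901) in HAR123-KO, -0.020 (-0.14 to 0.098, adjusted p = 0.882) in cHAR123 and -0.039 (-0.15 to 0.076, adjusted p = 0.698) in mHAR123.

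In hESCs LRP8 was slightly higher in each edited genotype, by 0.12 (SE 0.029), 0.13 (SE 0.029) and 0.13 (SE 0.028) on the log2 scale in HAR123-KO, cHAR123 and mHAR123 (edgeR adjusted p = 0.00250, 0.000618 and 0.000180). Without the second hHAR123 library the adjusted p was 0.0378 in HAR123-KO and 0.0175 in cHAR123, and without the second HAR123-KO library it was 0.0149 in HAR123-KO (log2 0.10, 0.12 and 0.10 in turn, so the sizes changed little). In neuroectoderm the differences from hHAR123 were 0.24 (SE 0.051) in HAR123-KO, as a description, 0.10 (SE 0.054, adjusted p = 0.192) in cHAR123 and 0.074 (SE 0.054, adjusted p = 0.355) in mHAR123. LRP8 differed from HAR123-KO by -0.10 (SE 0.047, adjusted p = 0.0614) in cHAR123 and by -0.14 (SE 0.048, adjusted p = 0.0177) in mHAR123, and neither passed; with library totals as the scaling the second did (adjusted p = 0.00858).

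**Figure D2:**
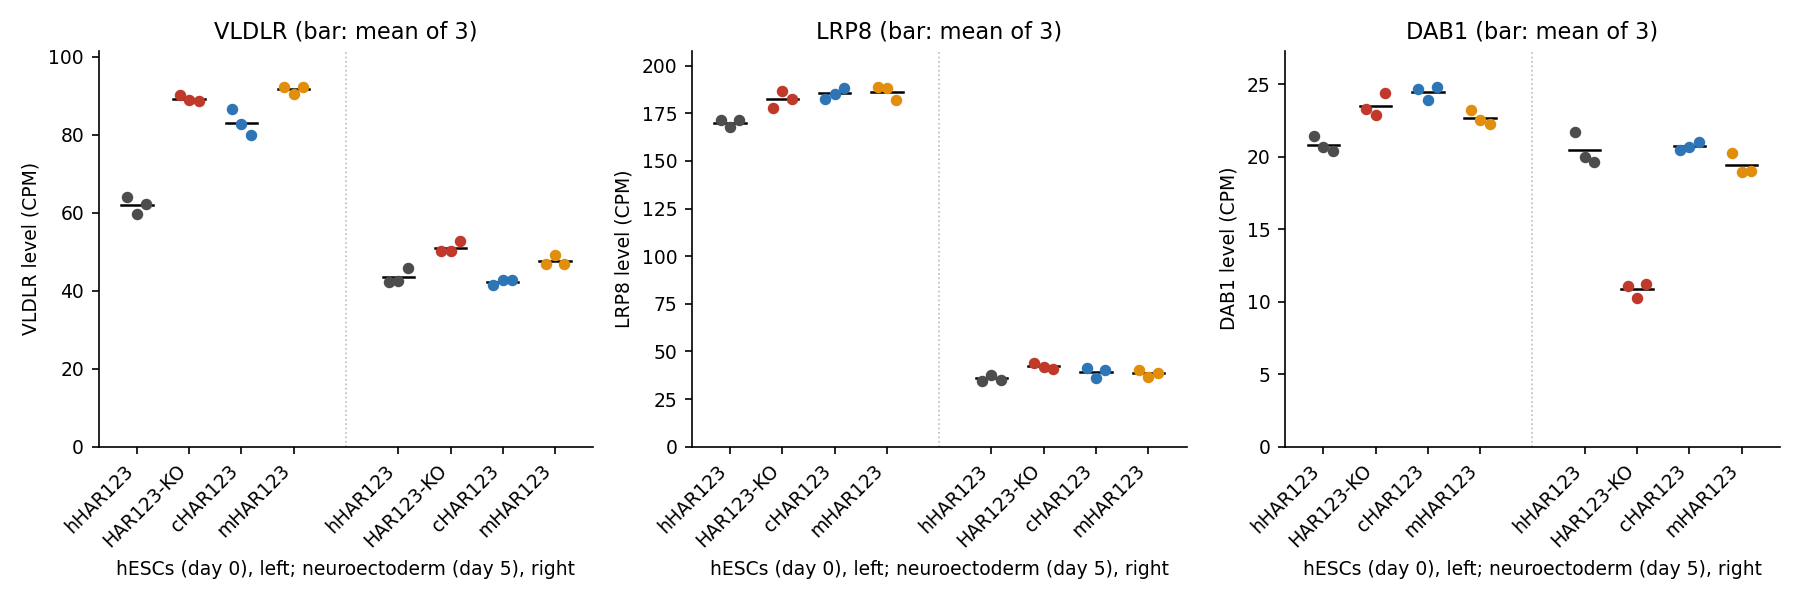
Levels of VLDLR, LRP8 and DAB1 in CPM (linear axes from 0) in each of the 24 libraries, by genotype, with hESCs on the left of each panel and neuroectoderm on the right; points are libraries and bars are means of 3. VLDLR is lowest in hHAR123 among hESCs, LRP8 falls in every genotype from at least 168 CPM to at most 43.7, and DAB1 is low in the HAR123-KO neuroectoderm libraries only.

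Because the receptors fell by different amounts, their ratio changed between the stages. The lengths used here are those of all listed exons of a gene, not of a single transcript, and ratios between genes depend on them. Per kilobase of exon (RPKM), LRP8 stood above VLDLR in all 12 hESC libraries, by a ratio of 2.25 to 2.36 in hHAR123, 1.65 to 1.76 in HAR123-KO, 1.77 to 1.98 in cHAR123 and 1.66 to 1.75 in mHAR123. In all 12 neuroectoderm libraries it stood below, at 0.640 to 0.746 in hHAR123, 0.653 to 0.731 in HAR123-KO, 0.705 to 0.834 in cHAR123 and 0.626 to 0.717 in mHAR123. The ratio in hHAR123 hESCs lay above that of every edited hESC library, while the genotypes overlapped in neuroectoderm.

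DAB1, the adaptor that carries the signal inside the cell, was the member that was low in one group alone. In neuroectoderm its level was 21.7, 20.0 and 19.7 CPM in hHAR123, 20.5, 20.7 and 21.0 in cHAR123 and 20.2, 19.0 and 19.0 in mHAR123. The HAR123-KO libraries held 11.1, 10.2 and 11.2 CPM (276, 266 and 296 counts), below all 9 others, while hHAR123 overlapped both replacements. In hESCs the level was 21.5, 20.7 and 20.4 CPM in hHAR123, 23.3, 22.9 and 24.4 in HAR123-KO, 24.7, 23.9 and 24.8 in cHAR123 and 23.2, 22.6 and 22.3 in mHAR123.

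Against hHAR123, DAB1 in HAR123-KO neuroectoderm differed by -0.91 on the log2 scale (SE 0.075), or 1.88-fold lower, a description only. The comparisons with the replacements do not use the hHAR123 libraries, but they reuse the same HAR123-KO libraries and are not independent of that contrast. DAB1 was 1.91-fold higher in cHAR123 than in HAR123-KO (log2 0.94, SE 0.070, edgeR adjusted p = 2.58e-18) and 1.78-fold higher in mHAR123 (log2 0.83, SE 0.072, adjusted p = 9.71e-14). At any size, 39.0% and 36.5% of all genes tested passed in these comparisons. Neither replacement differed detectably from hHAR123, with log2 differences of 0.0018 (95% interval -0.13 to 0.13, adjusted p = 0.990) in cHAR123 and -0.10 (-0.24 to 0.033, adjusted p = 0.296) in mHAR123.

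The low level arose during differentiation. In HAR123-KO, DAB1 fell 2.14-fold from hESCs to neuroectoderm (log2 -1.10, SE 0.071, edgeR adjusted p = 8.18e-22), a change called among the 41.1% of genes called there. In hHAR123 the change was -0.019 (95% interval -0.15 to 0.11, adjusted p = 0.784). The difference between these changes was itself called, at -1.11 on the log2 scale (SE 0.093, adjusted p = 2.23e-14), in a test that called 7.87% of all genes. That test reuses the neuroectoderm contrast given above as a description only, so it is no separate support for the low level. The same differences were -0.23 (adjusted p = 0.0543) in cHAR123 and -0.21 (adjusted p = 0.0818) in mHAR123, and the second passed with library totals as the scaling (-0.31, adjusted p = 0.00826). In cHAR123 and mHAR123 DAB1 changed by -0.22 and -0.21 (adjusted p = 0.000744 and 0.00175), values that depended on the scaling: with library totals in place of TMM factors they were -0.013 and -0.039 (adjusted p = 0.845 and 0.564), and that of hHAR123 was 0.27 (adjusted p = 0.000218). Without the second or the third mHAR123 neuroectoderm library, the mHAR123 change had an adjusted p of 0.0169 or 0.0108. In hESCs, the differences from hHAR123 were 0.19 (SE 0.058, adjusted p = 0.0136, and 0.00758 with library totals) in HAR123-KO, 0.24 (SE 0.057, adjusted p = 0.00127) in cHAR123 and 0.13 (SE 0.057, adjusted p = 0.0832) in mHAR123. That of cHAR123 did not pass with DESeq2 (adjusted p = 0.0197) or without the second hHAR123 library (0.0109).

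**Figure D3:**
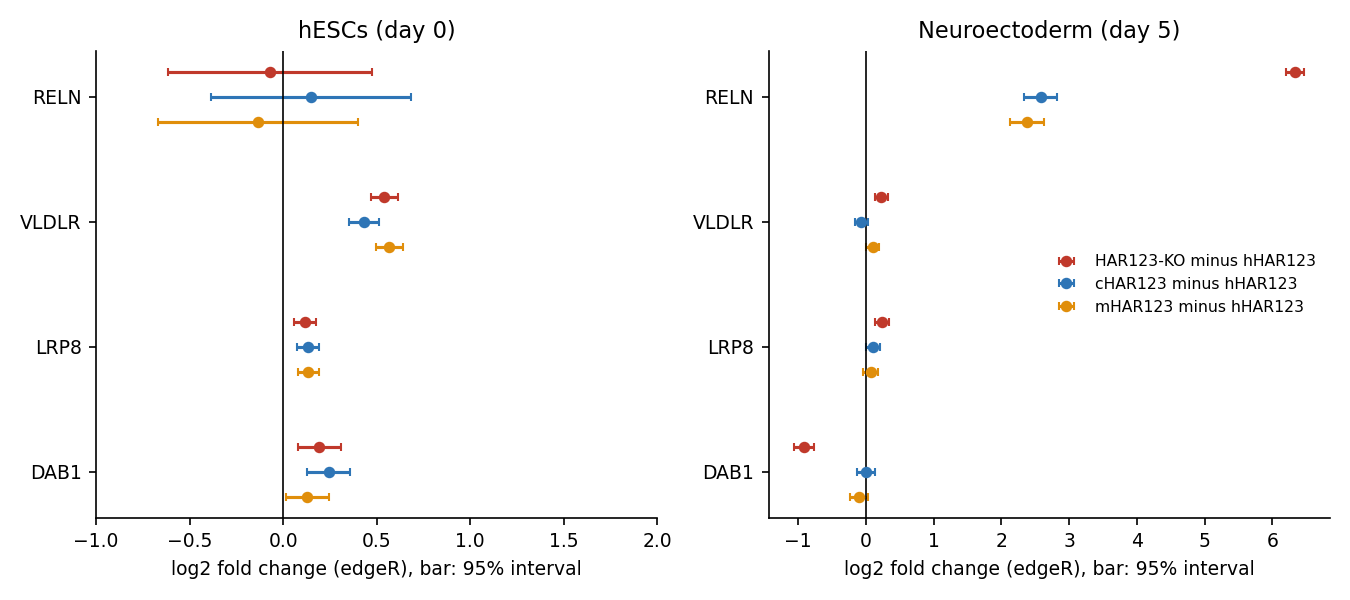
Log2 fold change of the 4 genes in each edited genotype against hHAR123, in hESCs (left) and neuroectoderm (right); points are edgeR estimates and bars their 95% intervals, and the x axes differ in range. In hESCs VLDLR is raised in all 3 genotypes and RELN intervals span 0, while in neuroectoderm RELN lies at 6.33, 2.58 and 2.38 and DAB1 at -0.91 in HAR123-KO.

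Set side by side per kilobase of exon, the ligand went from far below its receptors to their joint level, by this measure, in one group. The RELN value was 0.0015 to 0.0031 of the summed VLDLR and LRP8 values in hESCs and 0.011 to 0.019 in hHAR123 neuroectoderm. It reached 0.084 to 0.088 in cHAR123 and 0.068 to 0.075 in mHAR123, and 0.963 to 1.01 in HAR123-KO. The DAB1 value, in turn, was 0.572 to 0.664 of both receptors in hHAR123 neuroectoderm, 0.590 to 0.621 in cHAR123 and 0.519 to 0.549 in mHAR123, but 0.263 to 0.282 in HAR123-KO. In hESCs all groups lay between 0.199 and 0.228. These ratios depend on the exon lengths used, 35421 bases for RELN, 16507 for VLDLR, 19668 for LRP8 and 7551 for DAB1. Such lengths are not those of single transcripts. The ratios say nothing of the amounts of protein.

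The order of levels per kilobase, which depends on the same lengths, therefore differed between groups. In hESCs it was LRP8, VLDLR, DAB1 and RELN in every library, with LRP8 between 8.52 and 9.61 RPKM and RELN at most 0.038. In hHAR123 neuroectoderm DAB1 (2.61 to 2.87 RPKM) and VLDLR (2.56 to 2.78) overlapped, LRP8 followed at 1.76 to 1.92, and RELN was last at 0.050 to 0.081. In HAR123-KO neuroectoderm RELN was first at 5.07 to 5.26 RPKM, followed by VLDLR (3.04 to 3.19), LRP8 (2.08 to 2.22) and DAB1 (1.36 to 1.49), with no overlap between neighbours.

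The other genes of the pathway were followed as 8 lists with 48 genes, chosen from textbook roles with earlier results of these data known. In hESCs edgeR called none of the 47 tested in any edited genotype (LRP1B was too low to test), against 1.18% of all genes in HAR123-KO, 0.850% in cHAR123 and 1.23% in mHAR123. DESeq2 called none either, while 30, 27 and 28 of them had an unadjusted p under 0.05, a share not counted over all genes. At any size, 16 of the 47 passed an edgeR adjusted p of 0.01 in each edited genotype. Of all genes tested, 12.4% passed in HAR123-KO, 16.3% in cHAR123 and 19.2% in mHAR123. The difference in share was not tested. The median log2 fold change of the 48 genes in neuroectoderm was 0.052 in HAR123-KO, 0.055 in cHAR123 and 0.076 in mHAR123, beside 0.00092, -0.0059 and -0.0083 over all genes tested.

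In HAR123-KO neuroectoderm 8 of the 48 pathway genes were called, 5 higher and 3 lower, a share to be read against the 9.45% of all genes. The list of proteases that cleave reelin held 4 of the 5 that rose, and its median log2 fold change was 1.77. PLAT, tissue plasminogen activator, rose from between 3.32 and 3.68 CPM in hHAR123 to between 17.8 and 20.1 in HAR123-KO (log2 2.44, SE 0.096, edgeR adjusted p = 8.34e-28). ADAMTS4 rose from between 7.53 and 10.2 CPM to between 39.8 and 43.5 (log2 2.20, SE 0.071, adjusted p = 1.75e-31). ADAMTS3 rose from between 2.91 and 3.10 CPM to between 9.80 and 10.3 (log2 1.77, SE 0.11, adjusted p = 3.19e-19). ADAMTS5, with 9 to 20 counts in hHAR123 libraries, rose by a log2 fold change of 1.53 (SE 0.28, adjusted p = 4.93e-06), and ADAMTS2, the other member of the list, changed by 0.35 and was not called. ADAMTS3 and ADAMTS2 cut reelin near its N-terminal end, which lowers its activity.

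LRP4, a relative of the reelin receptors best known at the neuromuscular junction, rose from between 43.2 and 45.6 CPM to between 128 and 139 (log2 1.58, SE 0.041, edgeR adjusted p = 7.38e-36). It was the one called member of 8 in the LDL receptor family list. The 3 genes that fell were EPHB2 (log2 -1.28, SE 0.037), an ephrin receptor, ITGA3 (log2 -1.13, SE 0.083), an integrin subunit, and THBS1 (log2 -1.06, SE 0.095), thrombospondin-1, with adjusted p of 1.18e-33, 7.15e-17 and 7.99e-14. EPHB2 and ITGA3 stood on the list of other reelin-binding proteins, and THBS1 on that of alternative ligands of the receptors. None of the 5 genes of receptor folding and turnover, the 3 kinases of DAB1, the 14 genes downstream of DAB1 or the 3 genes of DAB1 turnover was called by edgeR in this comparison. Of these, 4, 2, 8 and 1 had an unadjusted p under 0.05, a share not counted over all genes. At any size, 3, 2, 8 and 1 of them passed the edgeR adjusted p threshold used for the calls. Of all 48 pathway genes 31 passed it at any size, 19 of them higher. The share of all genes tested that did so in this comparison was not counted. DESeq2, like edgeR, called 5 of the 48 higher and 3 lower.

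In the replacements, where 1.03% of all genes were called in mHAR123 neuroectoderm and 0.978% in cHAR123, few pathway genes were called. In mHAR123 PLAT alone was called, at 9.97 to 11.0 CPM (log2 1.54, SE 0.11, edgeR adjusted p = 3.65e-14). In cHAR123 none of the 48 was called by edgeR or DESeq2, with 27 at an unadjusted p under 0.05, a share not counted over all genes. At any size, 5 of 14 genes downstream of DAB1 passed an edgeR adjusted p of 0.01 in cHAR123. So did 1 or 2 genes of each other list, beside 9.89% of all genes tested. There PLAT, at 6.30 to 7.18 CPM, had a log2 fold change of 0.94 (SE 0.12, adjusted p = 6.71e-08). Without the second cHAR123 library 1 gene was called there, and without the first hHAR123 library 2 were called in mHAR123.

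**Figure D4:**
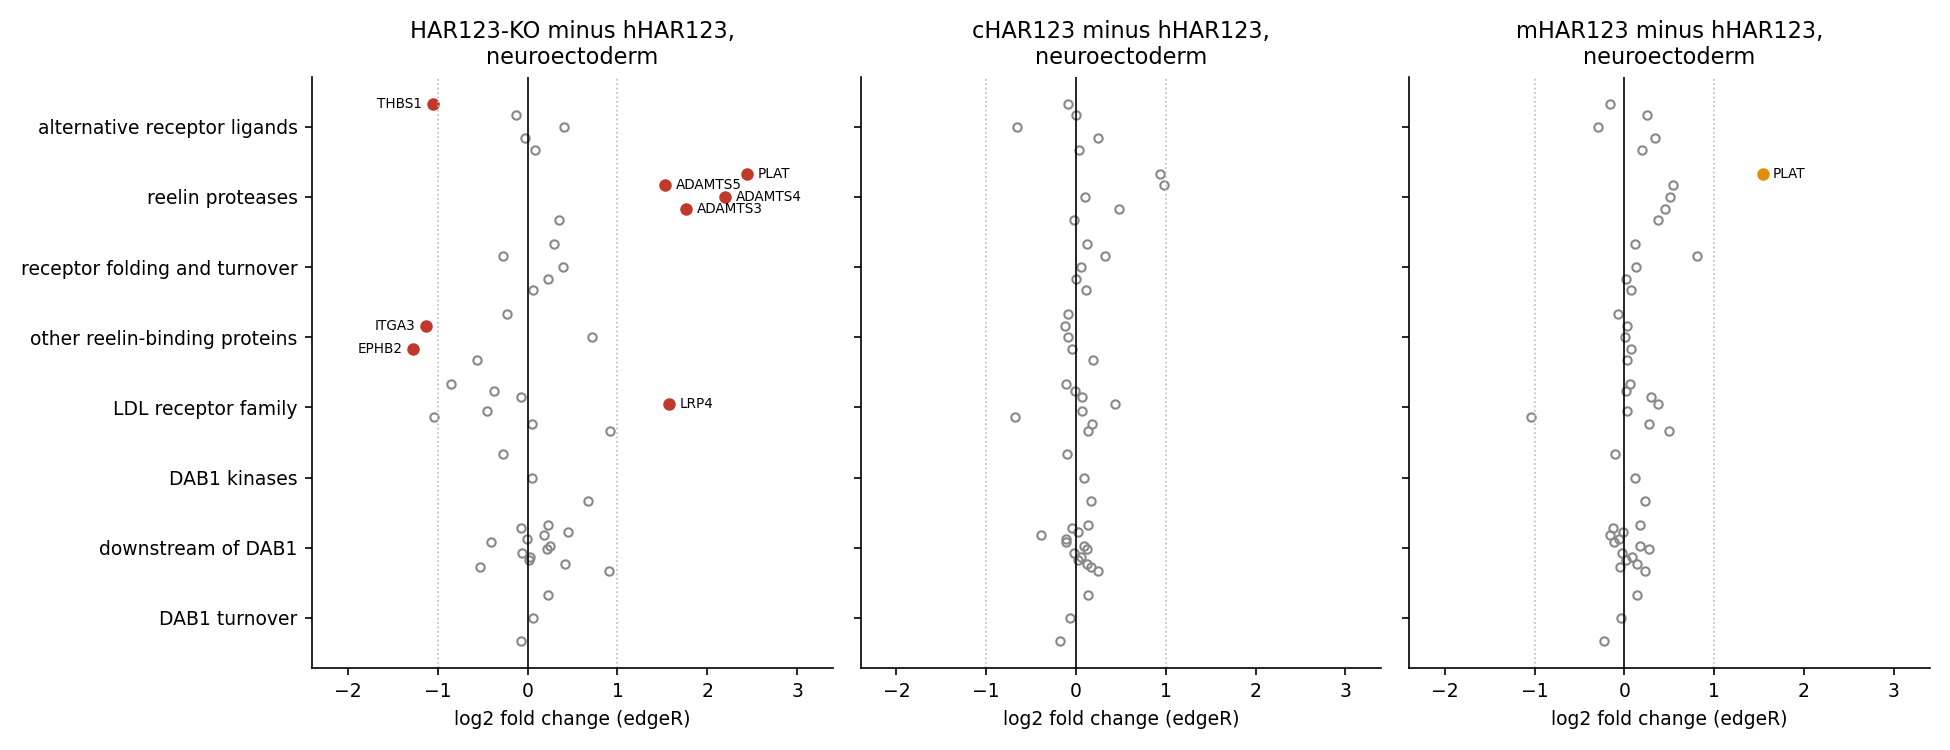
Log2 fold change against hHAR123 in neuroectoderm (edgeR) of the 48 other pathway genes, by list, in HAR123-KO, cHAR123 and mHAR123; filled and named points were called (adjusted p under 0.01 and past the dotted lines at 1 and -1), open points were not. In HAR123-KO 5 genes are called higher, 4 of them proteases, and 3 lower; PLAT is the 1 gene called in mHAR123 and none is called in cHAR123.

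Between the stages, the share of the pathway genes called was near that of all genes. Of the 48 genes, 10 rose and 14 fell in hHAR123, beside 45.9% of all genes called. The numbers were 11 and 10 in HAR123-KO, 10 and 12 in cHAR123 and 10 and 9 in mHAR123, beside 41.1%, 42.7% and 41.9% of all genes. With library totals as the scaling the split leaned to higher, with 11 and 7 in hHAR123, 13 and 9 in HAR123-KO, 11 and 7 in cHAR123 and 11 and 5 in mHAR123. LRP2 (megalin), an endocytic receptor of the neuroepithelium, rose from 80 to 81 counts per library to between 9915 and 11492 (log2 7.32, SE 0.054). SPON1 (F-spondin), which binds LRP8, rose by 4.07 (SE 0.058), and CLU (clusterin), a ligand of both receptors, by 1.87 (SE 0.037). CDH2 (N-cadherin), which reelin signalling recruits in migrating neurons, rose by 3.45 (SE 0.035), EPHB1 by 2.29 (SE 0.052) and EPHB2 by 2.07 (SE 0.040).

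MYLIP, the ubiquitin ligase that marks VLDLR and LRP8 for degradation, fell between the stages in hHAR123 (log2 fold change -1.74, SE 0.076), beside the -2.24 of LRP8. That of THBS1 was -2.77 (SE 0.055) and that of the protease ADAMTS5 -3.11 (SE 0.20). The largest edgeR adjusted p of these stage changes was 2.01e-17, in ADAMTS5.

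Markers of cell types that such cultures could hold, some of them known sources of reelin, were read in the same libraries. The summed level of 9 neural crest markers was 108 to 111 CPM in hHAR123 neuroectoderm, 1626 to 1644 in HAR123-KO, 260 to 272 in cHAR123 and 307 to 313 in mHAR123. Of the 8 that could be tested, edgeR called 8 higher in HAR123-KO, 7 in cHAR123 and 7 in mHAR123, beside 9.45%, 0.978% and 1.03% of all genes called in either direction. TWIST1, the ninth, was below 0.2 CPM in every neuroectoderm group. SOX10 and PAX7, for example, had mean levels of 10.7 and 1.70 CPM in hHAR123 and 304 and 116 CPM in HAR123-KO. The order of the sums differs from that of RELN in one respect: mHAR123 was above cHAR123 for the markers and below it for RELN. Between these replacements the RELN difference did not pass (edgeR adjusted p = 0.0972), and none of the 8 markers tested was called.

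In HAR123-KO, Cajal-Retzius markers did not rise with RELN. Their sum was 133 to 142 CPM in hHAR123, 43.9 to 47.9 in HAR123-KO, 145 to 152 in cHAR123 and 148 in mHAR123. Both replacements thus lay above every hHAR123 library, with no marker called in either. Of 9 markers 7 were tested, and 4 (LHX1, LHX5, NDNF and NHLH2) were called lower and none higher in HAR123-KO, where of all 21362 genes tested 966 were called lower and 1052 higher. The defining genes TP73, TBR1 and CALB2 had mean levels of 0.31, 0.052 and 0.013 CPM there. They were low in hHAR123 neuroectoderm as well, at 0.56, 0.17 and 0.13 CPM, and no higher than 0.56 CPM in either replacement. LHX5 was the largest part of the sum, with a mean of 94.8 CPM in hHAR123 and 18.3 in HAR123-KO. The part of neither cell type in the RELN level was tested.

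Markers of the cortical hem and roof plate summed to 109 to 116 CPM in hHAR123 and 134 to 139 in HAR123-KO neuroectoderm, with 4 called higher (GDF7, LMX1A, RSPO3 and WNT3A) and 2 lower (RSPO2 and WNT8B) of 8 tested. This count and the others in HAR123-KO that follow stand beside the 9.45% of all genes called. The 6 GABAergic markers summed to at most 6.8 CPM in any neuroectoderm library, with 1 called higher and 2 lower in HAR123-KO. The 4 endothelial markers summed to 22.7 to 29.3 CPM, nearly all of it PROX1, which neural progenitors also express. The 6 neuroectoderm markers summed to 1562 to 1584 CPM in hHAR123 and 636 to 649 in HAR123-KO, where 4 were called lower. The pluripotency markers summed to 127 to 133 CPM in hHAR123 and 196 to 206 in HAR123-KO, with 2 called higher (L1TD1 and ZFP42). The list did not move together. Mean levels of POU5F1, NANOG and TDGF1 were 13.8, 1.14 and 0.689 CPM in hHAR123 and lower, at 9.66, 0.777 and 0.579, in HAR123-KO. DPPA4 stood at 102 and 113 CPM, and L1TD1 at 7.93 and 53.7. Mesoderm markers stayed at or below 3.6 CPM and endoderm markers at or below 0.3 in neuroectoderm, and SOX17 was at 0 in every group.

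**Figure D5:**
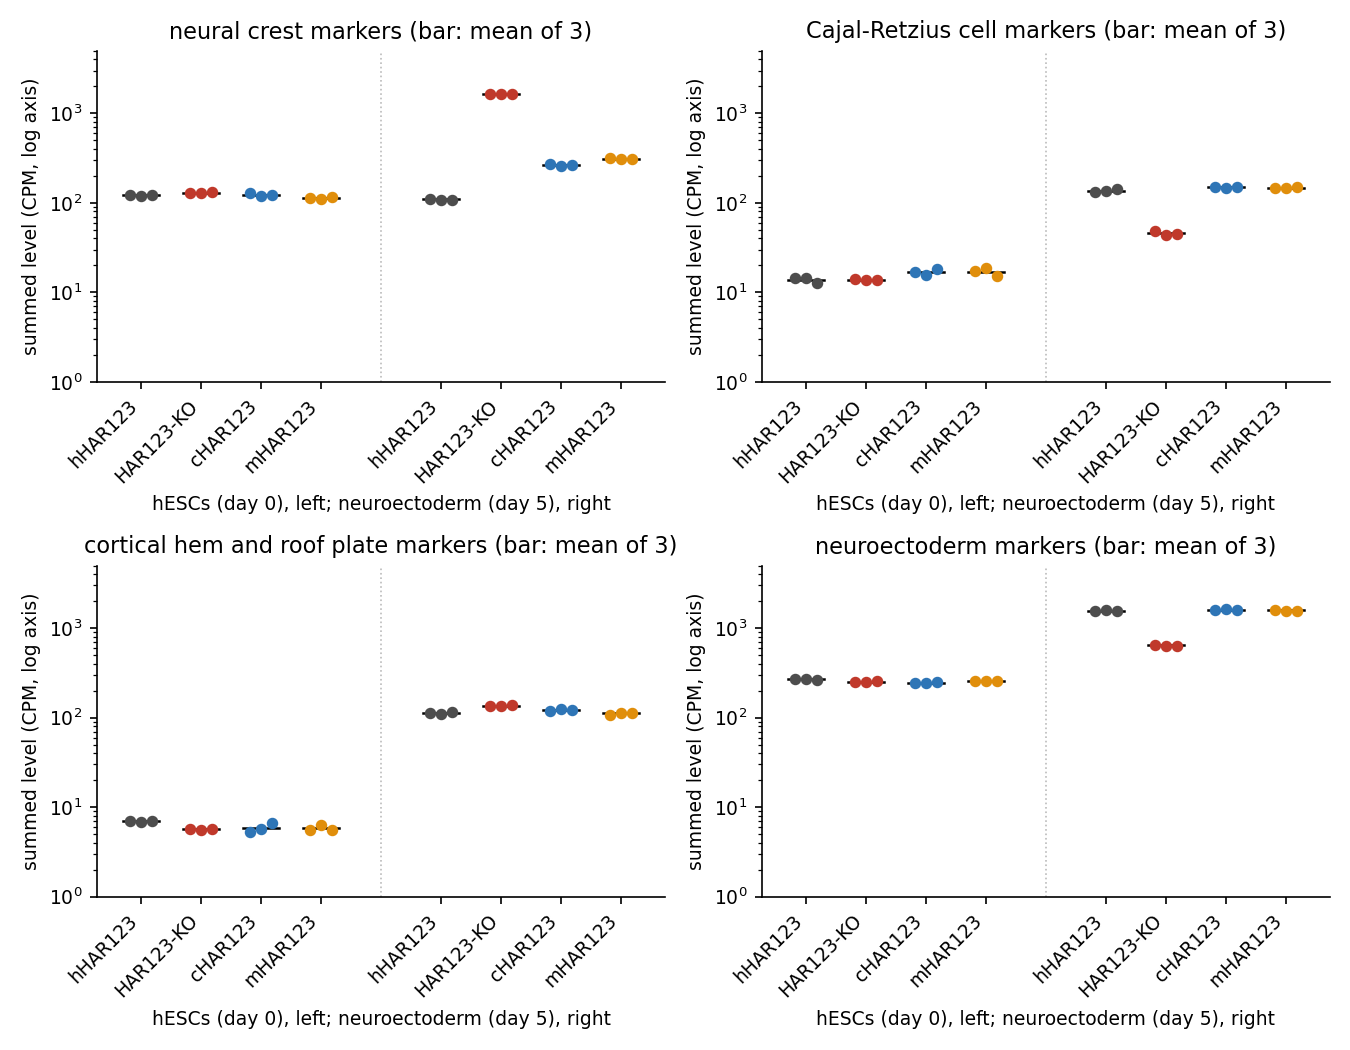
Summed level in CPM (log axes) of the markers of neural crest, Cajal-Retzius cells, cortical hem and roof plate, and neuroectoderm in each of the 24 libraries, by genotype and stage; points are libraries and bars are means of 3. Neural crest markers lie at 1626 to 1644 CPM in HAR123-KO neuroectoderm against 108 to 111 in hHAR123, while Cajal-Retzius and neuroectoderm markers are lower in HAR123-KO.

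Over the 24 libraries, the gene whose log2 CPM followed RELN most closely among 17477 genes was SOX10 (Pearson r = 0.990), followed by KANK4 (0.988), CRABP2 (0.984), DGKD (0.983), IGFBPL1 (0.981) and TLE1 (0.981). For VLDLR the nearest were COTL1 (0.980), CABYR (0.975) and ZNF204P (0.974). For LRP8 they were ANKRD13B (0.999), PIEZO1 (0.998) and GFPT2 (0.998), and for DAB1 RPS6KL1 (0.978), TSPAN2 (0.975) and ATP8A2 (0.969). These values describe the libraries, which fall into 8 groups and share their stages and genotypes, and carry no test.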

How the data were processed

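The authors depleted ribosomal RNA, sequenced directional paired-end libraries, aligned reads to GRCh38 with STAR 2.5.2b and counted reads over exons with featureCounts. What the authors deposited is a table of raw, unnormalized counts, in which their read filtering and alignment are already included. The entry of ANK2, broken over 3 lines, was left out. Columns were matched to samples by their labels. The members, lists and tests were chosen with earlier results of these data known.

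Each pair of groups was fitted alone in R 4.3.3 with edgeR 4.0.16 (filterByExpr, TMM, quasi-likelihood F test) with Benjamini-Hochberg adjustment over all genes tested, and stage differences as an interaction over 12 libraries. A gene was called where the adjusted p was under 0.01 and the log2 fold change was over 1 in size. Standard errors were taken from F as the log2 estimate over its root. Procedures were tested on simulated counts. The named genes are the 4 members, called genes of each list (at most 4, by size), overlapping antisense genes, and the genes most like each member. Alternatives were DESeq2 1.42.0, its size factors, library totals, no filter, all libraries in one fit, a replicate block, an adjusted p of 0.05 and leaving out each library. Some genes of the pathway lists enter the counts, but their own values are not reported here.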

Additional observations from a re-analysis of the deposited data

Results flagged for a closer look

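For 2 of the 3 genes tested, the effect of a genotype differed between the stages by the interaction test of edgeR (adjusted p under 0.01). That threshold was passed at any size by 32.5% of all genes tested in HAR123-KO, 8.71% in cHAR123 and 12.8% in mHAR123. DAB1 in HAR123-KO against hHAR123 changed by -1.11 on the log2 scale (SE 0.093) more in neuroectoderm than in hESCs, with an adjusted p of 2.23e-14. VLDLR showed such a difference in every edited genotype, of -0.31 in HAR123-KO, -0.49 in cHAR123 and -0.45 in mHAR123 (adjusted p = 1.41e-05, 9.13e-08 and 1.13e-07). In HAR123-KO, the tests of DAB1 and VLDLR reuse neuroectoderm contrasts given above as descriptions only. For VLDLR the higher level of the edited hESCs was smaller or not detectable in neuroectoderm. For RELN the same differences were not tested, because its level in neuroectoderm chose it. With 3 libraries per group, single libraries that stand apart were not searched for.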

How the results depend on the processing

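Of 1060 values of the members under the alternatives, 1023 kept their direction and side of the call threshold or, without a test, moved by less than the spread between replicates. Another 29 changed sign while past no threshold in either fit (adjusted p at least 0.705), and none of the called ones reversed. Library totals in place of TMM factors shifted all log2 fold changes between the stages upwards, by 0.29 in hHAR123, 0.20 in HAR123-KO, 0.21 in cHAR123 and 0.17 in mHAR123, and those between genotypes within a stage by at most 0.052. Under that scaling the stage change in HAR123-KO was 7.87 for RELN and -0.90 for DAB1, which was then no longer called (adjusted p = 7.64e-18). That of DAB1 in hHAR123 turned from -0.019 to 0.27 (adjusted p = 0.784 and 0.000218). The stage change of VLDLR in cHAR123 passed a log2 of 1 with DESeq2 (-1.001), and at an adjusted p of 0.05 edgeR called 2 pathway genes in mHAR123 neuroectoderm. Leaving out 1 library at a time gave -1.001 to -0.93 for the VLDLR change (past 1 without the third cHAR123 hESC library), 6.09 to 6.58 for the stage difference of the HAR123-KO effect on RELN (lowest without the second hHAR123 hESC library), and 0 to 1 and 1 to 2 pathway genes called in cHAR123 and mHAR123 neuroectoderm. The cause of these shifts was not tested. Replicate numbers did not pair the samples, with correlations of same-numbered deviations from -0.053 to 0.073. With the replicate number as a block, the stage difference of DAB1 in HAR123-KO was -1.11, 9 pathway genes were called in HAR123-KO neuroectoderm, and no call of a member changed. RELN in hESCs, at 19 to 40 counts, is the value that depth limits most.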

Other observations

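Of the annotated genes that share exon bases with a member, VLDLR-AS1 and OMA1 held the most counts. MAGOH-DT and LRP8-DT, opposite LRP8, held 0 to 27 and 2 to 19 counts per library, against 825 to 6000 for LRP8. OMA1, on the strand of DAB1 with 257 shared bases, held 95 to 200 counts and lay between 3.59 and 4.51 CPM in all neuroectoderm libraries, HAR123-KO included. SLC26A5-AS1, opposite RELN, shares no exon base with it and held at most 5 counts.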
